A study of Rattus norvegicus with 18 samples.

Results

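The mitochondrial respiratory chain subunits are the nuclear-encoded building blocks of the 5 enzyme complexes of oxidative phosphorylation. They were chosen by symbol from the array annotation: names beginning with Ndufa, Ndufb, Ndufc, Ndufs or Ndufv and a number, Sdha to Sdhd, names beginning with Uqcr, Cyc1, names beginning with Cox4 to Cox8 and then a, b, c or a number, and names beginning with Atp5, without the Ndufaf assembly factors. No Cox4 gene matched, since Cox4i1 and Cox4i2 have an i in that place. This gave 87 probe sets of 78 genes, out of 31099 probe sets on the array, of which 20832 carried a single symbol, for 14218 genes. Complex I had 36 probe sets of 33 genes, complex II 5 of 4, complex III 9 of 8, complex IV 17 of 17 and ATP synthase 20 of 16. Ndufa4 and Ndufa4l2 were placed in complex IV, where the Ndufa4 protein is found. Cox7a2l, which helps join complexes into supercomplexes, Atp5if1, an inhibitor of ATP synthase, and Cox6c-ps1, a pseudogene by its name, match the naming rule and were kept. A further 7 probe sets were left out because the annotation gives them a second symbol, among them those of Cox7a2, Cox5a, Ndufa10, Ndufs5, Uqcrb, Atp5mc1 and Atp5mc2.

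RNA from subcutaneous abdominal fat and from hypothalamus of rats was measured on 18 Affymetrix arrays, 9 per tissue, with 3 biological replicates in each of 3 treatment groups. Animals labelled RYGB-Success were losing weight after Roux-en-Y gastric bypass, in which a small stomach pouch is joined to the lower small intestine. Animals labelled RYGB-Fail were gaining weight after the same operation, and Pair-Fed animals received the amount of food that operated animals ate. The sources used here do not give strain, sex, age or time after surgery, nor whether fat and hypothalamus came from the same animals.

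Complexes I and II pass electrons from NADH and succinate to coenzyme Q, complex III passes them on to cytochrome c, and complex IV, cytochrome c oxidase, hands them to oxygen. Complexes I, III and IV pump protons, and ATP synthase uses the gradient to make ATP. Most subunits are made in every cell, but several complex IV subunits come as alternative forms, so that Cox6a2 and Cox8b take the place of Cox6a1 and Cox8a in heart and skeletal muscle, and Cox8b is also found in brown fat.

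Values are the deposited signals, which are linear and scaled to a common trimmed mean of 500.1 to 500.2 on every array, and differences are differences of mean log2 signal with their standard error (SE). Levels of different probe sets served for the filter below, for picking a gene's brightest probe set and for describing the members' brightness. Genes were not compared with each other by level. The tests covered the 18625 probe sets of a tissue that made up its brightest 60%, and 81 of the 87 probe sets (75 genes) passed this filter in fat and 84 (76 genes) in hypothalamus. In fat those left out were Cox7a1, Cox7b2, Ndufa4l2 and 1 probe set each of Atp5if1, Atp5me and Atp5po, and in hypothalamus Cox6c-ps1, Cox7b2 and 1 probe set of Atp5if1. Counts below are therefore of the probe sets tested and not of every member. The median signal of an array was 91.1 to 127 in hypothalamus and 98.2 to 200.0 on 8 of the fat arrays, against 288 on the third RYGB-Fail fat array, whose median correlation with the other fat arrays was 0.73 and whose beta-actin 3' to 5' ratio was 2.46, where the other fat arrays had ratios of 12.03 to 24.3. That array is kept below, and results that turn on it are also given without it.

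None of the 81 probe sets tested in fat and none of the 84 tested in hypothalamus passed an adjusted p of 0.05 in any of the 6 comparisons between treatment groups (limma with Benjamini-Hochberg adjustment over all probe sets tested). What follows describes the direction and size of the differences by complex, beside the same counts over all probe sets. With 3 arrays a group the 95% confidence interval of a single difference reached a median of 0.93 log2 to either side in fat and 0.48 in hypothalamus, so most differences of the sizes seen here could not be told from 0.

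**Figure D1:**
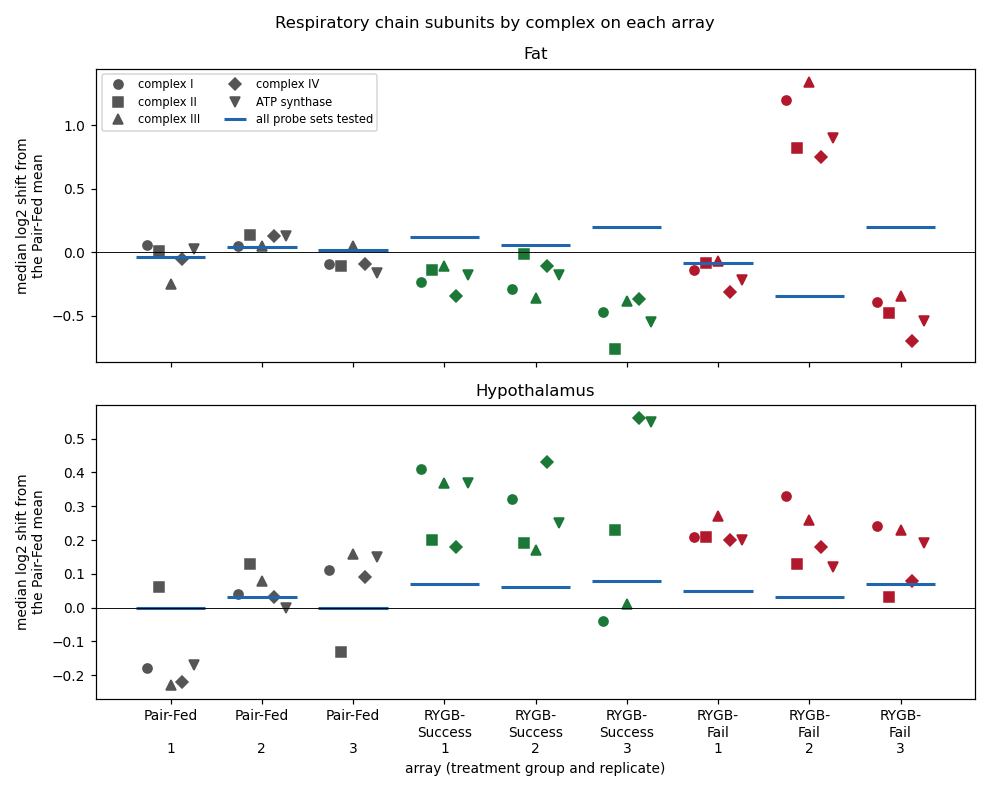
For each array, the median over the tested probe sets of a complex of the log2 signal minus the Pair-Fed mean of the same probe set. Symbols mark the 5 complexes, colours the treatment group, and blue bars the median over all 18625 probe sets tested in the tissue. In fat all 5 complexes lie above 0.7 on the second RYGB-Fail array and below -0.3 on the third, and in hypothalamus all 6 arrays from operated animals have most complexes above 0.

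In fat of RYGB-Success animals the subunits of all 5 complexes had medians below Pair-Fed. Of the 81 probe sets, 66 were lower and 15 higher, with a median difference of -0.29, where over all probe sets tested 41.8% were lower and the median was 0.11. By complex, 31 of 36 probe sets were lower in complex I (median -0.30), 4 of 5 in complex II (-0.26), 7 of 9 in complex III (-0.18), 10 of 14 in complex IV (-0.32) and 14 of 17 in ATP synthase (-0.37). Probe sets whose 3 RYGB-Success arrays all lay below the 3 Pair-Fed arrays numbered 22, against 7.69% of all probe sets tested, and 1, Atp5if1, had all 3 above, against 10.9%. No probe set passed the adjusted threshold, as was true of all 18625 (0.0%), and at an unadjusted p of 0.05 there were 2 lower and 0 higher, against 3.02% and 1.84% of all. The median shift on the single arrays from the Pair-Fed mean was -0.19, -0.18 and -0.47 for the 3 RYGB-Success arrays, where the Pair-Fed arrays had 0.01, 0.11 and -0.09, so the groups did not overlap, although most single probe sets did. The median signal of a whole array did not overlap either, at 164.8, 162.9 and 200.0 in RYGB-Success against 125.6, 147.2 and 133.8 in Pair-Fed. The trimmed mean was the same on these arrays. The members were brighter than most probe sets, with a median log2 signal of 10.07 to 10.5 in RYGB-Success and 10.55 to 10.77 in Pair-Fed. The part of the scaling in their lower levels was not tested. With each array centred on its median the median of all probe sets moved to -0.27 and that of the members to -0.67, with 3 of 81 higher. Such centring moves every difference by the same amount, so the distance between these medians could not change.

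Ndufa4l2, which the filter left out in fat, had 162, 234 and 128 in Pair-Fed and 108, 15.2 and 13.4 in RYGB-Success, and was not tested. Among the members tested the largest difference was in Cox6b2, the form of subunit 6b best known from testis. Its signal was 436, 816 and 524 in Pair-Fed, 208, 186 and 186 in RYGB-Success and 329.8, 208 and 234 in RYGB-Fail. Every array from operated animals was thus below every Pair-Fed array, and the 2 operated groups met at 208. The difference was -1.57 ± 0.40 (SE) for RYGB-Success and -1.18 ± 0.40 for RYGB-Fail, with limma adjusted p of 0.596 and 1.0. Atp5pf, coupling factor 6 of the stalk of ATP synthase, had 2410.3, 2271 and 1689 in Pair-Fed and 1538, 1377 and 1067 in RYGB-Success, which did not overlap, and 2128, 2374 and 1837 in RYGB-Fail, which did (difference for RYGB-Success -0.68 ± 0.29, adjusted p 0.972). Ndufb10, an accessory subunit of the membrane arm of complex I, also had groups that did not overlap, with a difference of -0.81 ± 0.38 (adjusted p 0.975). For several core subunits the differences were small for their errors: Ndufv1, which binds NADH, was at -0.23 ± 0.43, Ndufs1 at -0.33 ± 0.49, the succinate dehydrogenase flavoprotein Sdha at -0.12 ± 0.35 and its iron-sulfur partner Sdhb at 0.00 ± 0.35. The Rieske protein Uqcrfs1 was at -0.04 ± 0.51, and the ATP synthase alpha and beta subunits Atp5f1a and Atp5f1b at -0.37 ± 0.51 and -0.06 ± 0.34. Cox5b, a zinc-binding subunit of complex IV, was at -0.39 ± 0.35, with groups that did not overlap. The inhibitor Atp5if1 lay the other way, at 0.60 ± 0.38 for its brightest probe set. Nor did the widely expressed Cox7b follow the rest, with 0.19 ± 0.23.

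Other markers differed between these groups too. The 8 fibroblast markers tested were all lower in RYGB-Success, with a mean log2 signal of 10.8 to 12.08 against 12.95 to 13.51 in Pair-Fed. Blood cell markers had a mean of 8.64 to 10.45 in RYGB-Success against 6.91 to 7.49, and epithelium markers 5.62 to 8.76 against 5.14 to 5.34. All 8 macrophage markers tested were lower, with a median difference of -0.98, though their mean levels overlapped, at 8.69 to 9.48 against 9.15 to 10.51. Adipocyte markers overlapped, at 11.03 to 11.76 against 11.63 to 12.29. The part of these differences in the subunits' levels was not tested. In bulk tissue, fewer cells of a type and less RNA per cell cannot be told apart.

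**Figure D2:**
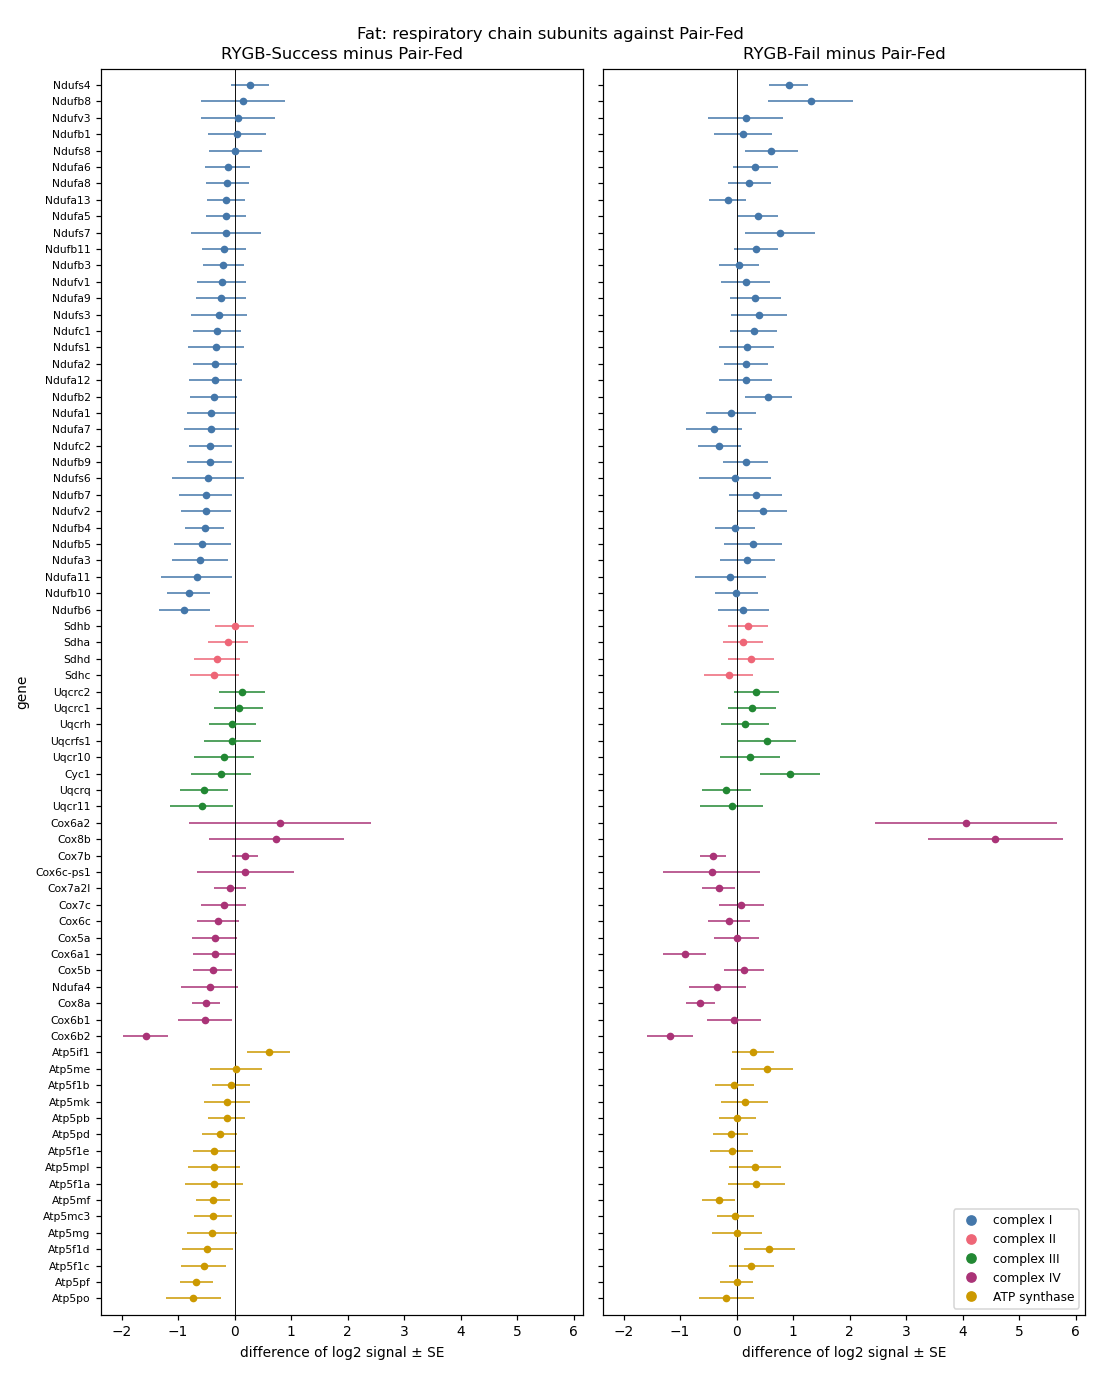
Difference of mean log2 signal from Pair-Fed in fat, with its SE from limma, for the probe set standing for each of the 75 genes tested, ordered by complex and by the RYGB-Success difference. Most RYGB-Success points lie left of 0 while RYGB-Fail points lie on both sides, and Cox8b and Cox6a2 stand far to the right in RYGB-Fail, at 4.58 and 4.06.

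In fat of RYGB-Fail animals complex IV had a median below Pair-Fed while the other complexes had medians above it, and it held both the highest and the lowest differences. Of the 81 probe sets, 54 were higher and 27 lower than Pair-Fed, with a median of 0.15 against -0.09 over all probe sets, of which 41.9% were higher. In complex I, 27 of 36 were higher (median 0.18), in complex II 4 of 5 (0.11), in complex III 7 of 9 (0.25) and in ATP synthase 11 of 17 (0.01), whereas in complex IV 5 of 14 were higher and 9 lower (-0.22). No probe set passed (0.0% of all probe sets), and at an unadjusted p of 0.05 there were 3 higher and 3 lower, against 1.42% and 1.27% of all. The 3 higher were Cox8b, Cox6a2 and Ndufs4, and the 3 lower were Cox6b2, Cox8a and Cox6a1, so that 5 of the 6 belong to complex IV. Groups without overlap were again 3 higher (Cox8b, Ndufs4, Ndufb8) and 3 lower (Cox7b, Cox6b2, Cox8a), against 2.57% and 4.33% of all probe sets. Cox8b, Cox6a2 and Ndufb8 were among the probe sets tested only through the RYGB-Fail arrays, since the geometric means of the other fat groups lay under the filter's lowest level, so their place in these counts is no support for a difference.

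Cox8b, the muscle and brown fat form of subunit 8, had signals of 57.0, 41.5 and 63.0 in Pair-Fed, 39.6, 85.3 and 204 in RYGB-Success, and 747, 13650.1 and 199 in RYGB-Fail. All 3 RYGB-Fail arrays were above all 3 Pair-Fed arrays, the second by far the most, while the third was level with the highest RYGB-Success array. The difference from Pair-Fed was 4.58 ± 1.20, unadjusted p 0.00255 and adjusted p 1.0 with limma. As the Pair-Fed mean lay under the lowest mean signal tested in fat, 88.9, the fold is a bound, at least 14.2-fold higher with each Pair-Fed array raised to that floor where it lay under it. With array weights the difference was 4.57 and the adjusted p 0.0401, and without the third RYGB-Fail array they were 5.91 and 0.0445, values that share the limit of a Pair-Fed level under the floor. Cox6a2, the muscle form of subunit 6a, had 11.9, 93.6 and 56.7 in Pair-Fed, 21.0, 177 and 90.1 in RYGB-Success, and 573, 11068 and 45.7 in RYGB-Fail. Here the third RYGB-Fail array lay within the Pair-Fed range and the other 2 above it, giving 4.06 ± 1.61 (adjusted p 1.0), at least 7.32-fold higher against the same floor.

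The general forms of the same subunits were at the other end. Cox8a had 4672, 6545 and 4956 in Pair-Fed, 4146, 3669.9 and 3439 in RYGB-Success, and 3119, 3778 and 3379 in RYGB-Fail. Both operated groups lay wholly below Pair-Fed, by -0.51 ± 0.25 and -0.64 ± 0.25, with adjusted p of 0.975 and 1.0. Cox6a1 had 3402, 2662 and 3159 in Pair-Fed and 2956, 1559.9 and 919 in RYGB-Fail, so that 1 RYGB-Fail array overlapped Pair-Fed (difference -0.92 ± 0.38, adjusted p 1.0). The promoters of 3 of these 4 genes are shown, 1 of a general form and 2 of muscle forms. They are as RefSeq gives them on the GRCr8 assembly, from 250 bases before to 50 bases after the gene start. They lie at chr1:213833574-213833873 on the minus strand for Cox8a, chr1:205408224-205408523 on the minus strand for Cox8b and chr1:192219667-192219966 on the minus strand for Cox6a2. Capitals mark, on either strand, CCGGAAG (the core bound by GABP, also called NRF2) and AAGATGGC (the YY1 motif) in Cox8a, and CAGCTG (an E-box, the site type of MyoD) and a MEF2 site in the muscle forms.
Cox8a: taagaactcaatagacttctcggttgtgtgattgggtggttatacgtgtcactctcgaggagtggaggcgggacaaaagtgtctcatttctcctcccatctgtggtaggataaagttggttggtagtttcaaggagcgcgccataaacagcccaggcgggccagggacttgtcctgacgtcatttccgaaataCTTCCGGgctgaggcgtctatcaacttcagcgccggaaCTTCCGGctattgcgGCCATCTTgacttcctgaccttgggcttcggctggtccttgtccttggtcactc
Cox8b: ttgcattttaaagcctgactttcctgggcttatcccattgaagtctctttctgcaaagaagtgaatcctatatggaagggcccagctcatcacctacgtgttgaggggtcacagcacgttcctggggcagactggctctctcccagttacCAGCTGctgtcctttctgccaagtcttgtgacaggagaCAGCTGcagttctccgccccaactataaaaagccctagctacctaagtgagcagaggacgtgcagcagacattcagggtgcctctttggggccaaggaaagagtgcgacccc
Cox6a2: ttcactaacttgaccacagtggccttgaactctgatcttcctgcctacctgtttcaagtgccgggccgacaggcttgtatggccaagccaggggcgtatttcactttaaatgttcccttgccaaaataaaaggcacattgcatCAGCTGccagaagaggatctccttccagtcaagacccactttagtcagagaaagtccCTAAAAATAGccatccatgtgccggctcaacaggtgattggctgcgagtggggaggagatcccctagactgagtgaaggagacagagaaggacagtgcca
Cox8a carried 2 CCGGAAG matches, beginning 57 and 19 bases before the start, and 1 AAGATGGC across the start, all on the opposite strand. Cox8b carried 2 CAGCTG matches, 100 and 62 bases before the start, and Cox6a2 1 CAGCTG 107 bases and 1 MEF2 site 50 bases before it, and neither held CCGGAAG, AAGATGGC or the other 2 respiratory chain motifs searched. CAGCTG is common, in 15.1% of 27457 RefSeq promoters of this length and in 14.3% of the members' promoters. Among the latter is that of Cox7b, a general complex IV subunit. The MEF2 site is rare, in 0.135% of all. CAGCTG and the MEF2 site were looked for after the sequences had been read, and a match of letters is no evidence of binding. Of 14 complex IV promoters 2 held CCGGAAG and 2 AAGATGGC, so Cox8a does not stand for the general forms.

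Ndufs4, an accessory subunit of complex I needed for its assembly and activity, was the remaining gene with an unadjusted p under 0.05 and a higher level. Its signals were 358, 264 and 294 in Pair-Fed, 322, 389 and 389 in RYGB-Success, and 483, 651 and 602 in RYGB-Fail. All 3 RYGB-Fail arrays were above all other fat arrays, by 0.92 ± 0.34 over Pair-Fed (adjusted p 1.0). Cox7b, a general complex IV subunit, had 24413, 28762 and 23968 in Pair-Fed, 27586, 33061 and 27623 in RYGB-Success, and 17957, 23713 and 16498 in RYGB-Fail, where the 3 arrays were the lowest of the 9.

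The skeletal muscle markers, 17 genes, moved with Cox8b and Cox6a2. Their mean log2 signal was 5.94, 6.57 and 5.03 in Pair-Fed, 6.53, 6.85 and 7.78 in RYGB-Success, and 11.61, 14.03 and 7.93 in RYGB-Fail. All 16 markers tested were higher in RYGB-Fail than in Pair-Fed, against 41.9% of all probe sets. At an unadjusted p of 0.05 there were 15 higher, against 1.42% of all. Markers under the filter's lowest level, 88.9, in the other fat groups could be tested only through the RYGB-Fail arrays. These counts are therefore no support for a difference. The creatine kinase Ckm had 3792, 23944 and 260.2 in RYGB-Fail and 4.2 to 63.7 in Pair-Fed, and the muscle actin Acta1 7320.1, 22903 and 323 against 2.5 to 138. Of the RYGB-Fail arrays the second was highest and the third lowest for each of Ckm, Acta1, Cox8b and Cox6a2. Of the 7 brown fat markers on the array, which include Cox8b, 3 were tested, 2 of them higher in RYGB-Fail and 1 lower. At an unadjusted p of 0.05 there was 1 in each direction, against 1.42% higher and 1.27% lower of all probe sets. The mean log2 signal of the 7 was 6.0 to 7.11 in RYGB-Fail and 6.13 to 6.57 in Pair-Fed. Ucp1 had 62.2, 28.1 and 158 in RYGB-Fail and 25.6 to 100.4 in Pair-Fed, which overlap. The part of muscle RNA in the levels of Cox8b, Cox6a2 and the other subunits was not tested.

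**Figure D3:**
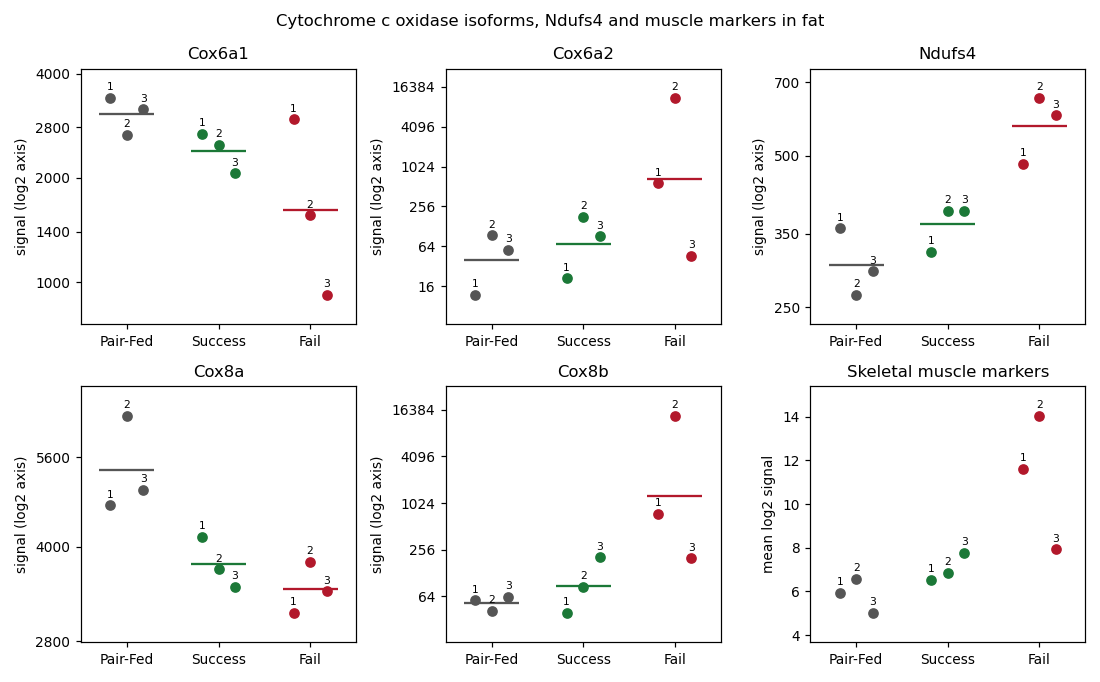
Signal on each fat array, on a log2 axis, of Cox6a1 and Cox8a (general forms), Cox6a2 and Cox8b (muscle forms) and Ndufs4, and the mean log2 signal of 17 skeletal muscle marker genes. Points are arrays with their replicate number, and lines in the gene panels are geometric means of 3 arrays. Cox8b reaches 13650.1 and Cox6a2 11068 on the second RYGB-Fail array, where the marker mean is 14.03, and Cox8a lies below every Pair-Fed array in both operated groups.

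The RYGB-Fail median rested on single arrays. The median shift of the 81 probe sets from the Pair-Fed mean was -0.14, 1.15 and -0.50 on the 3 RYGB-Fail arrays, while all probe sets had -0.08, -0.34 and 0.20. On the second array 73 of 81 probe sets were above the Pair-Fed mean, but only 8 of 14 in complex IV. Without that array the median difference from Pair-Fed was -0.33 with 14 of 81 higher, and without the third it was 0.48 with 72 of 81 higher. The first array, with the second highest muscle marker mean, had 21 of 81 above.

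RYGB-Success lay below RYGB-Fail in fat for 72 of 81 probe sets, with a median of -0.43 against 0.17 over all, of which 37.4% were lower. No probe set passed (0.0% of all), and at an unadjusted p of 0.05 there were 7 lower and 1 higher, against 2.27% and 3.43% of all, and 9 were lower and 1 higher without overlap, against 2.61% and 5.26%. The 7 were Cox8b (at least 10.8-fold lower, with the RYGB-Success mean under the floor), Cyc1, the cytochrome c1 of complex III (-1.18 ± 0.53), the ATP synthase subunits Atp5pf and Atp5f1d, and Ndufb6, Ndufb2 and Ndufv2 of complex I (the last 3 named after their values were seen), and the 1 higher was Cox7b (0.61 ± 0.23, adjusted p 0.827). This comparison too turned on the second RYGB-Fail array: without it the median was 0.05, with 44 of 81 higher. Without the third RYGB-Fail array 5.99% of all probe sets were called, and among members Cox8b and Cox6a2, with adjusted p of 0.0212 and 0.0375. Both had been tested only through RYGB-Fail, so these calls are no support, and the fitted difference of -5.18 of either is no measure of size.

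In hypothalamus most of the subunits tested lay above Pair-Fed in both operated groups. In RYGB-Success 66 of 84 probe sets were higher and 18 lower, with a median of 0.25 against 0.05 over all probe sets, of which 54.4% were higher. By complex 23 of 36 were higher in complex I (median 0.19), 4 of 5 in complex II (0.21), 8 of 9 in complex III (0.21), 14 of 15 in complex IV (0.36) and 17 of 19 in ATP synthase (0.35). No member passed, where 2 of all probe sets did (0.0107%). At an unadjusted p of 0.05 there were 23 higher and 1 lower, against 6.94% and 6.2% of all, and groups without overlap numbered 19 higher and 0 lower, against 10.8% and 7.28%. The count of 23 ran from 12 without the first Pair-Fed array to 29 without the third RYGB-Success array, and the count of higher probe sets from 58 to 66 as single arrays were left out.

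These counts depend on how arrays are brought to a common scale. Centring each array on its median moved the median of all probe sets from 0.05 to -0.19, and then 47 of 84 members were higher, with a median of 0.01, and 3 were higher and 5 lower at an unadjusted p of 0.05. Such centring moves every difference by the same amount, so the members' median stayed 0.20 above that of all probe sets by construction. After quantile normalization the members' median stood 0.29 above that of all probe sets, and 64 were higher. The direction of the members in RYGB-Success is therefore a statement relative to the other probe sets.

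The lowest p was that of Ndufa1, a small subunit of complex I encoded on the X chromosome and needed for assembly of its membrane arm. Its signals were 1082, 1493 and 1317 in Pair-Fed, 2663, 2159.7 and 3811 in RYGB-Success, and 1498, 2006 and 1823 in RYGB-Fail. Every RYGB-Success array was above every other hypothalamus array, and the RYGB-Fail arrays lay between, the lowest of them just above the highest Pair-Fed array. The difference was 1.12 ± 0.24 for RYGB-Success, adjusted p 0.215, and 0.45 ± 0.24 for RYGB-Fail, adjusted p 1.0. Without the second RYGB-Success array it was 1.31 and passed, with an adjusted p of 0.0478.

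Cox6b1, the general form of the subunit that joins 2 complex IV monomers, had 2449, 3519 and 3669.6 in Pair-Fed, 6107, 5697 and 4810.2 in RYGB-Success, and 3632, 5357 and 5099 in RYGB-Fail. RYGB-Success did not overlap Pair-Fed (0.80 ± 0.22, adjusted p 0.221), and RYGB-Fail did on 1 array (0.55 ± 0.22, adjusted p 1.0). Atp5mpl, a small membrane protein of ATP synthase, had 2284, 2651 and 2905 in Pair-Fed, 4820.1, 3598 and 4755 in RYGB-Success, and 2957, 4105 and 3409 in RYGB-Fail, so that both operated groups lay above Pair-Fed (0.74 ± 0.20 and 0.41 ± 0.20). Uqcrh, the hinge protein of complex III, and Ndufs8, an iron-sulfur subunit of complex I, were picked out after their values were seen, for the same order. Uqcrh had 2787, 3407 and 3921 in Pair-Fed, 5129, 4896 and 5957 in RYGB-Success, and 4118, 4270.1 and 4398 in RYGB-Fail, and the 3 groups did not overlap (0.67 ± 0.18 and 0.35 ± 0.18). Ndufs8 had 346, 422 and 438, then 748, 603 and 741, then 527, 503 and 577, again without overlap (0.80 ± 0.22 and 0.42 ± 0.22).

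The promoters of Ndufa1, Uqcrh, Ndufs8 and Atp5mpl are shown as examples with a motif match. In all 4 genes the group mean was highest in RYGB-Success and lowest in Pair-Fed. Other subunits had this order too, among them Cox6b1, Ndufb9 and Ndufb2, and are not shown. The 4 examples are thus no evidence that a motif goes with the order. They lie on GRCr8 at chrX:121293506-121293805 on the minus strand, chr5:134790833-134791132 on the minus strand, chr1:210573649-210573948 on the minus strand and chr6:136845591-136845890 on the minus strand. Capitals mark CCGGAAG on either strand in the first 3 and the NRF1 motif in Atp5mpl.
Ndufa1: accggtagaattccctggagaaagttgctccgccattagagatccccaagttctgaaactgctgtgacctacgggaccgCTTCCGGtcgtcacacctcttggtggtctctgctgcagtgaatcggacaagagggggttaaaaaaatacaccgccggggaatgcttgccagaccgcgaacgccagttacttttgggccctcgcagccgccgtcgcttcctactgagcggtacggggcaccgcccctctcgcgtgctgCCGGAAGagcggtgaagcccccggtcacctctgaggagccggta
Uqcrh: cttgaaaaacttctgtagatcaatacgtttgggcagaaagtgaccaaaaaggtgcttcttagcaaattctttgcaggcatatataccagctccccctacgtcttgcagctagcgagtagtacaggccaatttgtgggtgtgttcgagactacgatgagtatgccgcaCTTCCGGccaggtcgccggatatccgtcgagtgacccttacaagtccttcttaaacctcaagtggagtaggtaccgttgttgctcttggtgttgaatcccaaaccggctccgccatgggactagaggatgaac
Ndufs8: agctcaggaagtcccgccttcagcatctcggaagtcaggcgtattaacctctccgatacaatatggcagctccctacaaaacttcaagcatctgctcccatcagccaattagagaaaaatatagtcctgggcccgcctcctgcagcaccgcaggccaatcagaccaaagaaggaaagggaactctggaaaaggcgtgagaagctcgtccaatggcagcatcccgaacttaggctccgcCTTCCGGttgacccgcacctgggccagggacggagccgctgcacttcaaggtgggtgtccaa
Atp5mpl: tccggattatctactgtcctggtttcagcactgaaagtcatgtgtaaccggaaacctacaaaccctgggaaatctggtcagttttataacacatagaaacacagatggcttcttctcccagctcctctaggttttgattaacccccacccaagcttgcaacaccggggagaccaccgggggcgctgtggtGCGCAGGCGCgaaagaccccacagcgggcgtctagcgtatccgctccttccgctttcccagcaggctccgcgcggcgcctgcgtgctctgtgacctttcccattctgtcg
The 4 sequences do not share 1 arrangement. In Ndufa1 a CCGGAAG match begins 171 bases before the start and another 6 bases after it, in Uqcrh and Ndufs8 1 match begins 83 and 12 bases before it, and in Atp5mpl the NRF1 match begins 60 bases before it.

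Ndufa4 went against the rest. It had 7920.4, 8288 and 6396 in Pair-Fed, 4171, 6439.8 and 4458 in RYGB-Success, and 8443, 6276 and 6178 in RYGB-Fail. Of the RYGB-Success arrays 2 were below all others, while the second lay within the Pair-Fed range (-0.60 ± 0.21, adjusted p 0.282), the only member lower at an unadjusted p of 0.05. Other subunits near 0 or below it were Ndufs1 (-0.25 ± 0.22), Sdha (-0.13 ± 0.21), Uqcrfs1 (0.01 ± 0.22), Cox5a (0.06 ± 0.20) and the catalytic Atp5f1b (0.10 ± 0.20). Atp5f1d, the delta subunit of the rotor, had 1214, 1448 and 1945 in Pair-Fed, 1265, 1545 and 558 in RYGB-Success, where only the third RYGB-Success array stood apart. Above Pair-Fed among the fixed genes were Cox5b (0.67 ± 0.21), Atp5f1a (0.49 ± 0.18), Ndufv1 (0.47 ± 0.28), Cox8a (0.36 ± 0.18), Cox6a1 (0.30 ± 0.21) and Atp5if1 (0.80 ± 0.29), with adjusted p above the threshold.

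**Figure D4:**
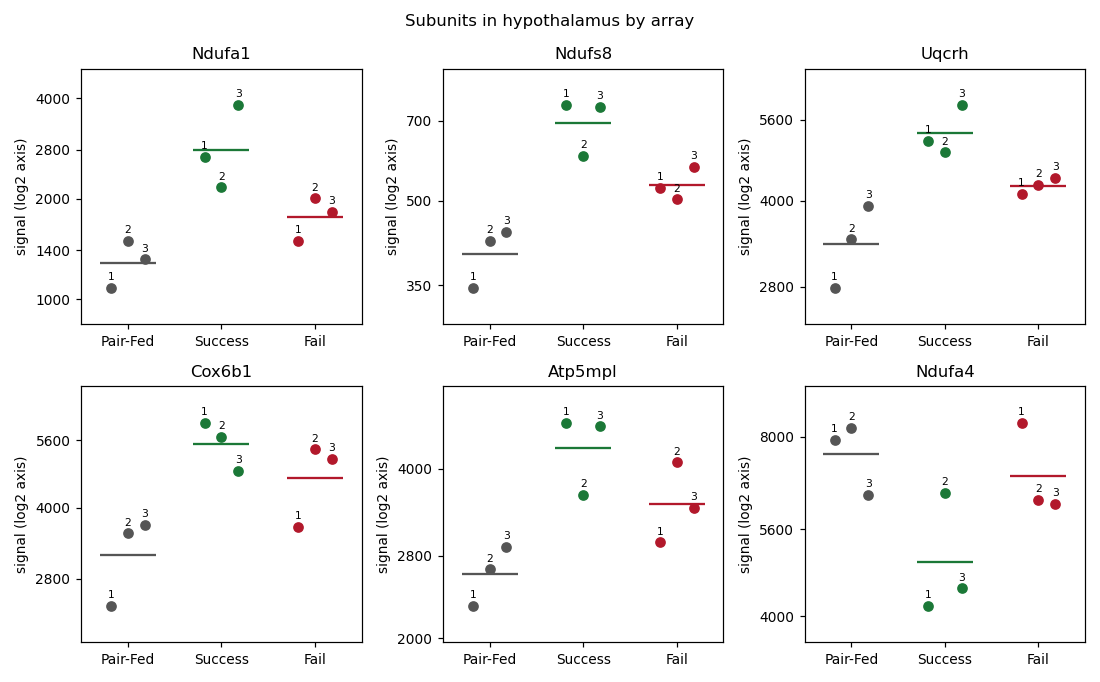
Signal on each hypothalamus array, on a log2 axis, of 5 of the subunits with the lowest unadjusted p in RYGB-Success and of Ndufa4. Points are arrays with their replicate number and lines geometric means of 3 arrays. For Ndufa1, Ndufs8 and Uqcrh every RYGB-Success array is above every RYGB-Fail array and every RYGB-Fail array above Pair-Fed, and Ndufa4 is lowest on RYGB-Success arrays 1 and 3.

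Blood cell markers, 5 genes, were higher on the RYGB-Success arrays of hypothalamus, with a mean log2 signal of 8.35 to 9.63 against 5.67 to 6.82 in Pair-Fed and 5.81 to 7.19 in RYGB-Fail. The heme enzyme Alas2 had 279 to 384 in RYGB-Success and 22.5 to 88.7 in Pair-Fed. Choroid plexus and ependyma markers were at 7.91 to 8.30 in RYGB-Success and 7.86 to 8.08 in RYGB-Fail, against 6.64 to 7.54 in Pair-Fed. Neuron markers were at 11.60 to 11.84 in both RYGB-Success and Pair-Fed. The beta-actin 3' to 5' ratio was lowest, 6.65, on the third RYGB-Success array and highest, 178.5, on the second Pair-Fed array. It was 10.09 to 48.5 on the other hypothalamus arrays. On the third RYGB-Success array the median shift was -0.04 for complex I and 0.01 for complex III but 0.56 for complex IV. The part of these features in the subunits' levels was not tested.

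In RYGB-Fail hypothalamus most subunits were above Pair-Fed too. Of 84 probe sets 72 were higher and 12 lower than Pair-Fed, with a median of 0.21 against 0.03 over all probe sets, of which 54.4% were higher. By complex 31 of 36 were higher in complex I (0.22), 4 of 5 in complex II (0.14), 9 of 9 in complex III (0.24), 11 of 15 in complex IV (0.15) and 17 of 19 in ATP synthase (0.24). No probe set passed (0.0% of all). At an unadjusted p of 0.05 there were 2 higher and 0 lower, against 1.81% and 0.58% of all, and 16 were higher without overlap and 0 lower, against 5.81% and 3.36%. The 2 were Cox6b1 and Uqcr10, a small subunit of complex III, which had 925, 1796 and 2474 in Pair-Fed and 2810.3, 2950.5 and 2774 in RYGB-Fail (0.83 ± 0.35, adjusted p 1.0), and for which RYGB-Success gave 0.21 ± 0.35. As RYGB-Success and RYGB-Fail were set against the same 3 Pair-Fed arrays, their shared direction is no independent repeat. With each array centred on its median 56 of 84 were higher and the median was 0.09. Pair-Fed arrays had median shifts of -0.17, 0.03 and 0.10, and those of the operated animals lay at 0.19 to 0.32, but the shift is taken from the Pair-Fed mean, which holds Pair-Fed near 0. The members' median log2 signal itself was 10.94, 10.93 and 11.02 in Pair-Fed, 11.32, 11.16 and 10.76 in RYGB-Success, and 11.18, 11.15 and 11.09 in RYGB-Fail. By that measure the third RYGB-Success array was below all 3 Pair-Fed arrays and the other 5 arrays of operated animals above them.

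Between the 2 operated groups 53 of 84 probe sets were higher in RYGB-Success, with a median of 0.10 against 0.01 over all, of which 51.6% were higher, but 39 of 84 were higher, with a median of -0.03, after centring each array on its median. No member passed, against 1 of all probe sets (0.00537%), and at an unadjusted p of 0.05 there were 2 higher (Ndufa1, 0.67 ± 0.24, and Cox6a2, 1.50 ± 0.67) and 2 lower (Atp5f1d, -0.86 ± 0.33, and Ndufa4, -0.48 ± 0.21), against 2.23% and 3.79%. Without overlap 13 were higher and 2 lower, against 5.84% and 4.69%. Cox6a2 signals in this tissue were at 152 or less on every array. Its geometric means in Pair-Fed and RYGB-Fail lay under the filter's lowest level there, 52.7, so it was tested only through RYGB-Success. Its place in the count is thus no support for a difference, and 1.50 is no measure of size.

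**Figure D5:**
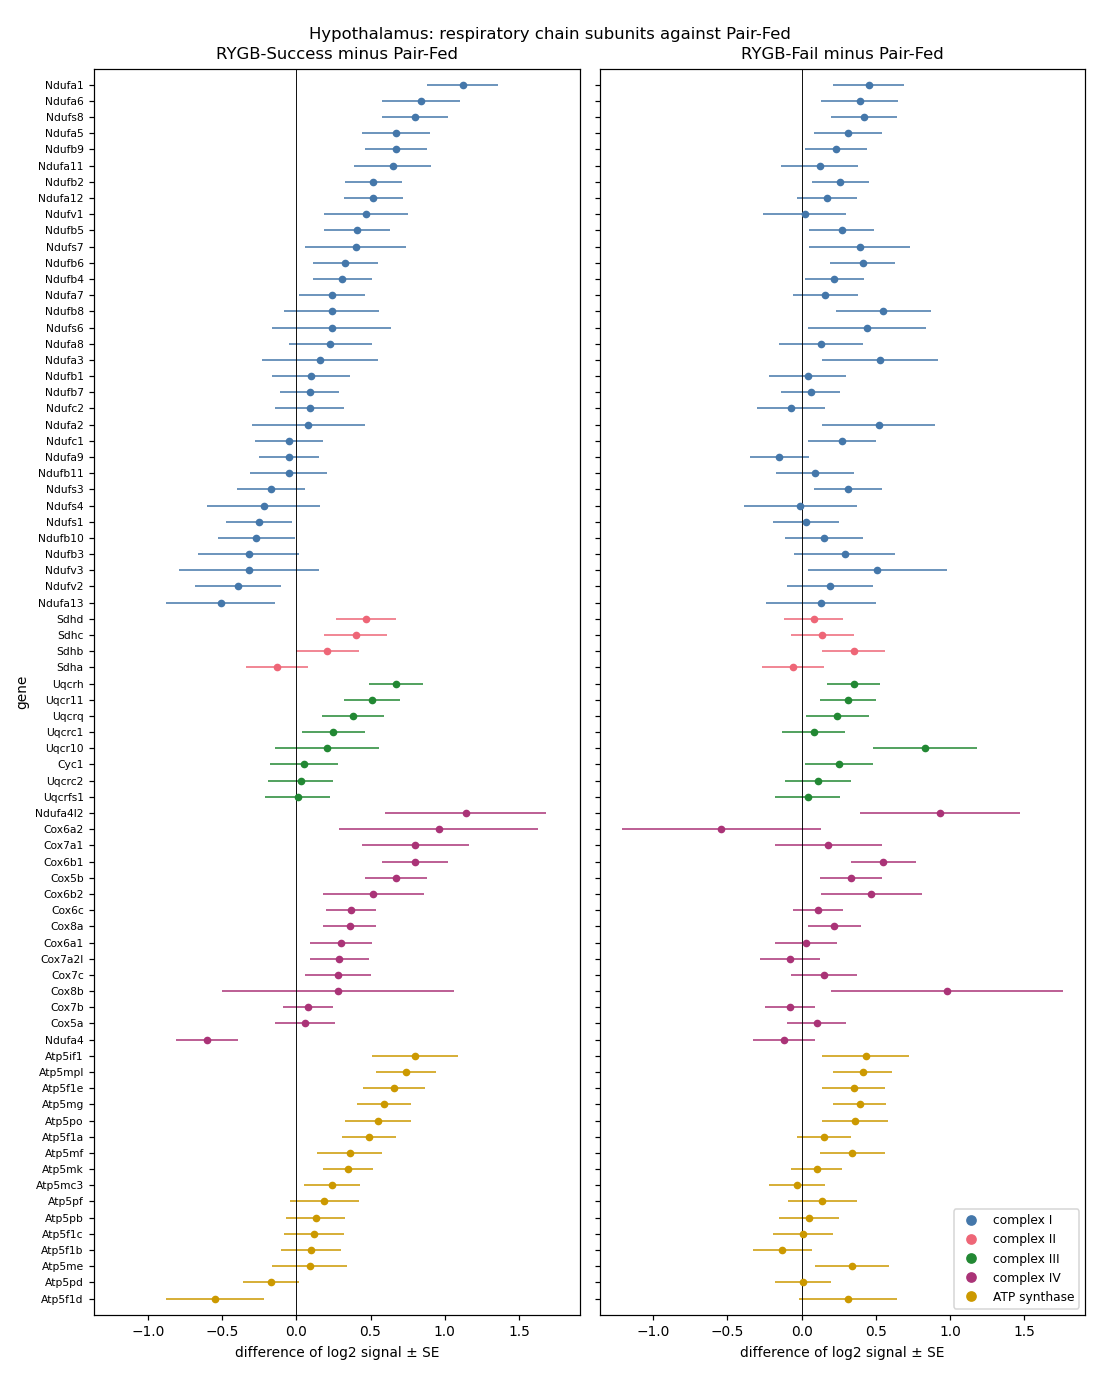
Difference of mean log2 signal from Pair-Fed in hypothalamus, with its SE from limma, for the probe set standing for each of the 76 genes tested, ordered by complex and by the RYGB-Success difference. Most points lie right of 0 in both panels, with Ndufa1 at 1.12 and Ndufa4 at -0.60 in RYGB-Success.

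An interaction term asked whether fat and hypothalamus differed in their response, over 15531 probe sets, 80 of them members, that passed the filter in both. For RYGB-Success against Pair-Fed the fat difference minus the hypothalamus difference was negative in 69 of 80, with a median of -0.53 against 0.03 over all, of which 48.3% were negative. No probe set passed (0.0% of all), and at an unadjusted p of 0.05 there were 11 lower and 0 higher, against 4.56% and 3.7%. The lowest was Cox6b2 (-2.09 ± 0.50, adjusted p 0.262), with -1.57 ± 0.40 in fat and 0.52 ± 0.34 in hypothalamus, followed by Cox8a (-0.87 ± 0.28) and Ndufa1 (-1.53 ± 0.52). For RYGB-Fail against Pair-Fed 45 of 80 were negative, with a median of -0.07 against -0.11 over all, of which 59.0% were negative, and 2 higher and 3 lower at an unadjusted p of 0.05 (1.16% and 1.84% of all), with 0 passing (0.0%). Between RYGB-Success and RYGB-Fail 71 of 80 were negative, with a median of -0.44 against 0.13 over all, of which 41.6% were negative, and 0 passed (0.0%), with 4 lower and 0 higher at an unadjusted p of 0.05 (2.28% and 4.17%). The fat side of this last comparison turned on the second RYGB-Fail array, as given above. Without the third RYGB-Fail fat array 0.85% of all probe sets were called in it, and among members Ndufa11 (-1.97, adjusted p 0.0474) and Cox6a2 (adjusted p 0.0426). Cox6a2 was tested in fat only through RYGB-Fail, so that its call is no support. Ndufa11 had 1075, 2290 and 250 in RYGB-Fail fat, so its call rests on leaving out its lowest array there.

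Between the tissues themselves, in Pair-Fed animals, 10 of the 85 members tested differed, which is fewer than the 39.5% of all 21719 probe sets tested. The members' median was -0.35, against 0.27 over all, and 65 of 85 were lower in fat, against 42.2%, with 20 higher, or 6 higher after centring each array on its median. Cox6b2 was higher in fat (2 members against 22.4% of all) by 2.03 ± 0.38 (adjusted p 0.000275), with hypothalamus signals of 99.9, 197 and 138 against the fat values above, and Cox6c-ps1 was called as well (adjusted p 0.00984). Cox6c-ps1 had 162, 176 and 128 in fat and 29.1, 32.3 and 5.07 in hypothalamus, all of the latter under the lowest mean signal tested there, 52.7, so it was tested only through fat, its difference has no reliable size, and it was not called without the third hypothalamus array (adjusted p 0.0666). Higher in hypothalamus (8 members against 17.2%) were Ndufa8, an accessory subunit of complex I (-1.35 ± 0.33, adjusted p 0.0029), Atp5f1d (-1.19 ± 0.42), Ndufb7 (-0.98 ± 0.37), Atp5if1 (-0.96 ± 0.32), Cox6a1 (-0.91 ± 0.31), Atp5mk (-0.84 ± 0.32) and 1 of the probe sets each of Ndufa7 (-1.69) and Ndufa9 (-1.33). The other Ndufa7 probe set was higher in fat, at 0.61, and did not pass, and a second Atp5if1 probe set was at 0.13 (adjusted p 0.831). Without 1 Pair-Fed array at a time the count was 4 to 8. The lowest count, 4, came without the third fat array and without the second or the third hypothalamus array, and 5 passed without the second fat array. In those fits 31.1% to 33.5% of all probe sets were called. With array weights 31 members passed, against 53.9% of all, and with the Pair-Fed arrays alone in the fit 32, against 52.6%.

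Subunits outside the naming rule and the rest of the pathway did not pass in any of the 6 treatment comparisons. Cox4i1, the general form of complex IV subunit 4, was at -0.73 ± 0.39 in fat and 0.31 ± 0.20 in hypothalamus of RYGB-Success, and the complex I acyl carrier protein Ndufab1 at -0.45 ± 0.50 and -0.35 ± 0.24. Assembly factors, which build the complexes but are not part of them, split evenly in RYGB-Success fat, 18 of 37 higher with a median of -0.02, and in RYGB-Success hypothalamus 23 of 37 were higher with a median of 0.07. Cox16, which takes part in complex IV assembly, led them there, at 1.36 ± 0.31 (unadjusted p 0.000607, adjusted p 0.215). Of the 12 genes of coenzyme Q synthesis, 11 were higher in RYGB-Fail fat (median 0.40) and 6 in RYGB-Success fat, with 0 at an unadjusted p of 0.05 in either. Over all probe sets 41.9% were higher in RYGB-Fail fat, with a median of -0.09. The mean log2 signal of these genes was 8.51 to 9.68 in RYGB-Fail fat and 8.4 to 8.73 in Pair-Fed, which overlap. The adenine nucleotide and phosphate carriers and porins were split in both tissues, and Slc25a5, the ADP/ATP carrier of most tissues, was at -0.92 ± 0.37 in RYGB-Fail fat. Among regulators of mitochondrial gene expression 11 of 15 were higher in RYGB-Success fat (median 0.37), with 0 at an unadjusted p of 0.05. In RYGB-Success hypothalamus they were split, 9 of 17 higher with a median of 0.06. The mitochondrial polymerase genes Polg2 and Polrmt were at 1.22 ± 0.44 and 1.20 ± 0.43, the 2 of the 17 with an unadjusted p under 0.05. Over all probe sets 6.94% were higher and 6.2% lower at that p, so the count says little about the regulators. Electron carriers and feeders of the chain had 4 of 8 genes higher there, with a median of -0.04.

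RefSeq promoters were found for 70 of the 78 genes. The NRF1 motif was in 18.6% of them on either strand, against 4.71% of 27457 promoters of the same length, CCGGAAG (GABP) in 27.1% against 9.22%, AAGATGGC (YY1) in 22.9% against 3.44%, and TCAAGGTCA, the motif of estrogen-related receptors, in 2.9% against 0.412%. No pattern contains another. The median GC content was 55.8% in members and 52.3% in all. By complex the NRF1 motif was in 6 of 31 promoters of complex I, 1 of 4 of complex II, 1 of 6 of complex III, 0 of 14 of complex IV and 5 of 15 of ATP synthase. Sdha, which held the NRF1 motif in 3 separate places, is shown as an example at chr1:30764303-30764602 on the plus strand, with those matches in capitals.
Sdha: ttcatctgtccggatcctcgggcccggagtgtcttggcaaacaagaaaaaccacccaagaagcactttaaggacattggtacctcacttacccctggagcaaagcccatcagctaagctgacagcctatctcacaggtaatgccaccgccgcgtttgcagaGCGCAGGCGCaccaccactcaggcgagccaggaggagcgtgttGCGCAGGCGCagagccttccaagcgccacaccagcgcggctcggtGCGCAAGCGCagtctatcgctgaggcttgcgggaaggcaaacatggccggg
Its 6 treatment differences lay between -0.23 and 0.11. In RYGB-Success hypothalamus the 39 genes tested with any of the 4 motifs had a median difference of 0.35 and the 30 without one 0.17, while in RYGB-Success fat 38 genes had -0.34 and 29 had -0.28. These are descriptions of the genes tested, with no test.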

How the data were processed

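Signals were the deposited microarray intensity values of the series matrix, which the authors made with the MAS5 algorithm in GCOS, per the submitters' processing notes. Per the labels, RNA was extracted with Qiagen RNeasy kits, amplified and labelled with NuGEN WT Ovation and biotin. The values are linear, have a 2% trimmed mean of 500.1 to 500.2 on each array, and were used as log2 with no pseudocount. The number of arrays, 3 per group, limits the precision.

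Probe sets were named by the platform annotation. Of 31099, 57 were controls, 436 carried several symbols and 9780 none. The upper 60% by mean log2 signal in each tissue were kept, with a lowest mean signal of 88.9 in fat and 52.7 in hypothalamus. Differences were fitted over the 9 arrays of a tissue with limma 3.58.1 in R 4.3.3 (lmFit, eBayes with a mean-variance trend) and adjusted by Benjamini-Hochberg over all probe sets kept, with 0.05 as threshold; interaction and tissue tests used all 18 arrays. The fit was tested on simulated data. The genes named in a comparison were members passing the threshold, the 3 with the lowest unadjusted p in each direction, a fixed set of core subunits and isoform pairs, and the 2 with the lowest p of each other list; a gene with several probe sets was represented by its brightest. Ndufb8 and Ndufa11 were named after their values were seen. The members and all gene lists were chosen with earlier results of these data known. Alternatives were a pseudocount of 50, no filter, the upper 40%, quantile normalization, median centring, a replicate block, array weights, only the compared groups, no trend, the mean over a gene's probe sets and leaving out each array. Promoter sequences came from RefSeq tables of GRCr8, matched by gene ID for all 78 genes, 70 of which had an entry. Tables were made with Python 3.11.15 and pandas 2.3.3, and figures with matplotlib 3.10.9.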

Additional observations from a re-analysis of the deposited data

How the results depend on the processing

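No member changed direction while passing the threshold under any alternative run. In fat, RYGB-Fail minus Pair-Fed, the count of members passing was 1 with array weights in place of 0, and 0 to 1 as single arrays were left out, and RYGB-Success minus RYGB-Fail gave 0 to 2. In hypothalamus, RYGB-Success minus Pair-Fed, the median difference was 0.01 after median centring, and 0 to 1 members passed as single arrays were left out. The interaction for RYGB-Success minus RYGB-Fail gave 0 to 2. The tissue count was 31 with array weights and 32 with only the compared groups, and 4 to 8 as single arrays were left out. The cause of these changes was not tested. Correlations of deviations did not show that the replicate numbers shared by the groups pair the samples, and they could not exclude it. Of 27 same-numbered pairs, 6 had a correlation of deviations over 0.1 (range -0.163 to 0.29), and in 0 of 9 pairs of groups did every number. The main fits used no pairing. With the replicate block the tissue count was 11 in place of 10, and every treatment count of members passing stayed at 0. Of the named-gene values under alternatives that keep all arrays, 2855 kept their direction and side of the threshold, 17 newly passed, 10 no longer passed and 58 moved in sign without passing. Signals near the filter's lowest level, as for Cox8b and Cox6a2 in Pair-Fed, have no reliable fold.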
